A study of Mus musculus with 2 samples.

Results

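Primary (azurophilic) granules are the first granules that a developing neutrophil or monocyte makes, at the promyelocyte step, and they store microbicidal enzymes in an acidic, proteoglycan-rich matrix. Myeloperoxidase turns hydrogen peroxide and chloride into hypochlorous acid, and a family of chymotrypsin-like serine proteases digests microbial proteins. The genes for these proteins are switched on in myeloid progenitors, before any granule can be seen, and later granule types are made from other genes at later steps.

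The 10 genes described here are Mpo, Elane, Prtn3, Ctsg, Prss57, Srgn, Ms4a3, Nkg7, Lyz2 and Fcnb, chosen by symbol for their place in or near the primary granule, among 43346 mouse gene entries of the deposited tables. Each symbol matched 1 gene identifier. Nkg7, Srgn and Lyz2 are also used by other blood cells, and Fcnb, which encodes ficolin B, a lectin of maturing granulocytes, belongs to a later step of granule formation. Total RNA was sequenced from primary common myeloid progenitors (CMP), bone marrow cells that give rise to granulocytes, monocytes, red cells and megakaryocytes, of male adult C57BL/6J mice aged 5 to 6 weeks with no further allele or treatment named. The 2 libraries, biological replicates 1 and 2 of this 1 group, were each made from a pool of 100 cells with RNA over 200 nucleotides, and the labels give them separate biosamples but the same donor identifier. The series therefore holds no contrast between conditions. The comparisons are those of the genes among themselves and of replicate 1 with replicate 2, and every p-value measures only the spread between, or the counting noise of, these libraries, which may be technical.

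Replicate 1 held 28916263 expected counts and replicate 2 held 26426710, of which nuclear protein-coding genes took 43.9% and 45.3%. A count of 0 allows up to 0.104 counts per 1000000 in replicate 1 and 0.114 in replicate 2 (3 counts of the total), and such floors, like the intervals below, reflect the counting error alone, as the reads carry no molecular identifier and may be copies of 1 molecule. The CMP gate genes matched the label. Kit, the stem cell factor receptor, had 98.1 TPM (transcripts per 1000000) in replicate 1 and 93.0 in replicate 2, Cd34 had 74.5 and 55.4, and Ly6a and Il7r, which the gate leaves out, had 0 counts in both. The Fc receptor genes Fcgr3 (0.640 and 4.27 TPM) and Fcgr2b (2.48 and 9.59 TPM), which the gate takes at a low level, were both higher in replicate 2 (adjusted p = 1.43e-15 and 3.59e-13, exact binomial test described below).

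The 10 genes together held 22089 counts in replicate 1, or 0.174% of nuclear protein-coding counts (95% exact Clopper-Pearson interval 0.172% to 0.176%), and 24576 in replicate 2, or 0.206% (0.203% to 0.208%). Their TPM summed to 853.7 in replicate 1 and 959.3 in replicate 2. Mpo made up 45.2% of that sum in replicate 1 and 40.3% in replicate 2, Srgn 28.4% and 32.1%, and the 4 serine proteases added 126.0 and 175.1 TPM. By their protein-coding transcripts alone, a setting chosen after seeing the data, the 4 proteases summed to 105.6 TPM in replicate 1 and 81.3 in replicate 2, the opposite order. Of the 10 genes, 9 reached 1 TPM in each library, the level taken here as detected, against 44.9% of the 21461 nuclear protein-coding genes, and the exception was Fcnb. The median of the 10 was 29.1 TPM in replicate 1 and 37.1 in replicate 2, beside 0.320 and 0.560 TPM over all nuclear protein-coding genes. Of the latter, 9360 had 0 counts in both libraries. Among genes detected in both, the medians were closer, 37.1 and 49.5 TPM for the 9 and 13.15 and 13.46 TPM over all 9627. In these pools, fewer cells that express a gene and less of its RNA per cell cannot be told apart.

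**Figure D1:**
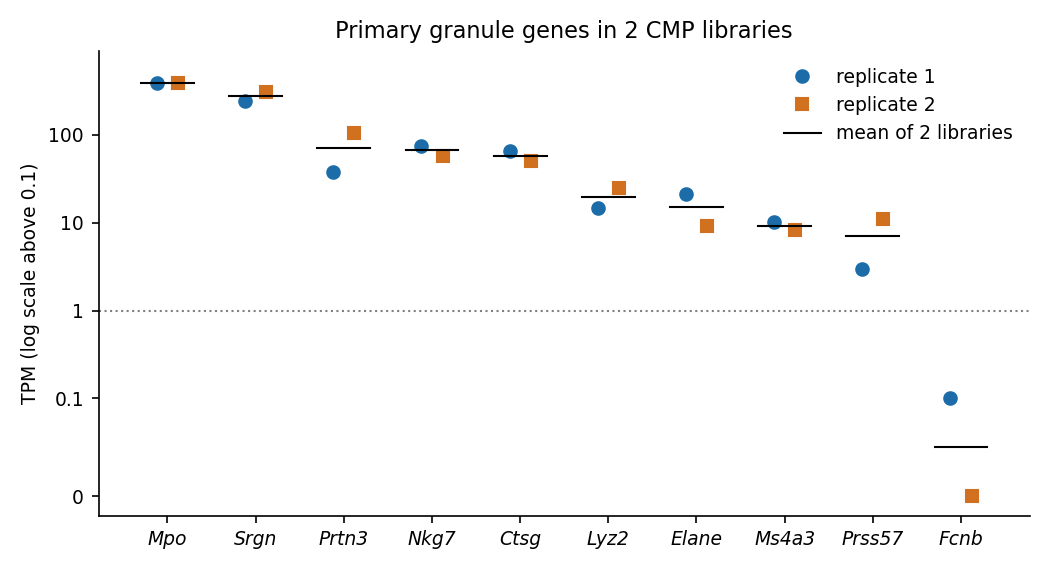
TPM of the 10 primary granule genes (y axis, log scale above 0.1 and linear below) in replicate 1 (circles) and replicate 2 (squares), with the mean of both as a bar and 1 TPM as a dotted line. The points of Mpo coincide at 386 TPM, those of Prtn3, Elane and Prss57 lie well apart, and Fcnb lies at or below 0.1 TPM in both libraries.

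Mpo (ENSMUSG00000009350; GRCm38 chr11:87793581-87804413, plus strand) encodes myeloperoxidase, the haem enzyme that gives primary granules their peroxidase stain. Mpo had 385.9 TPM from 14164 counts in replicate 1 and 386.1 TPM from 15306 counts in replicate 2, a mean of 386.0 ± 0.141 TPM (SD, n = 2). In all, 120 nuclear protein-coding genes stood higher in replicate 1 and 117 in replicate 2. The genes outside the gene lists used here that lay nearest to Mpo in level, by the summed absolute difference in log2(TPM + 1) over both libraries, were Cfl1 (cofilin, 379.0 and 377.6 TPM), Naca (a subunit of the nascent polypeptide-associated complex, 405.0 and 408.6 TPM) and Rps3 (a ribosomal protein, 371.6 and 417.6 TPM). The deposited bounds of the posterior mean, a second estimate of the same TPM, ran from 359.4 to 378.1 in replicate 1 and from 357.9 to 375.4 in replicate 2, below the maximum likelihood values above, and overlapped between the libraries.

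The near identity of the Mpo totals was one of TPM, and it covered unlike transcripts. The effective length, by which counts are turned into TPM, was 1787 bases in replicate 1 and 1934 in replicate 2. By counts Mpo was lower in replicate 1, at a ratio (replicate 1 over replicate 2) of 0.943 after TMM scaling and 0.820 after total-count scaling. Of 6 Mpo transcripts, Mpo-203 (protein-coding, 2409 bases, 14 exons) led in both libraries, with 178.8 TPM or 46.3% of the gene in replicate 1 and 217.4 TPM or 56.3% in replicate 2. Mpo-201, which also has 14 exons but another first exon, took 22.4% in replicate 1 and 21.7% in replicate 2. Mpo-205, a 2-exon protein-coding model of 640 bases at the 3′ end, 424 of them also in Mpo-203, took 30.8% (118.8 TPM) in replicate 1 and 19.3% (74.3 TPM) in replicate 2. The bounds of Mpo-203 (163.2 to 177.6 in replicate 1, 198.1 to 213.7 TPM in replicate 2) and of Mpo-205 (104.5 to 122.5 and 63.0 to 78.2 TPM) did not overlap between the libraries. As a share of the gene's counts, Mpo-203 held 58.7% in replicate 1 and 65.4% in replicate 2, a difference of -6.73 percentage points (adjusted p = 4.97e-32, two-sided Fisher's exact test with Benjamini-Hochberg adjustment over 7355 genes). The counts and the TPM weight these transcripts differently, since a short transcript such as Mpo-205 takes few reads for its TPM. Mpo also overlaps the gene Gm11505, and how reads in that overlap were divided was not tested.

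The 4 serine proteases did not differ between the libraries in 1 direction. By whole-gene counts, Prtn3 and Prss57 were higher in replicate 2, Elane and Ctsg higher in replicate 1, and 3 of these genes (Prss57, Prtn3 and Elane) lie within 106742 bases on chromosome 10. Each gene was tested by an exact binomial test, two-sided, of its rounded counts after TMM scaling, with Benjamini-Hochberg adjustment over 13616 genes at 0.05. It takes counting noise alone as error and so compares these libraries, not a biological difference.

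Prtn3 (ENSMUSG00000057729; GRCm38 chr10:79874476-79883174, plus strand) encodes proteinase 3, the protease known in human vasculitis as an autoantigen. It had 568 counts and 37.1 TPM in replicate 1, against 1406 counts and 105.4 TPM in replicate 2 (mean 71.3 ± 48.3 TPM, SD, n = 2). Replicate 1 was thus the lower library, at a count ratio of 0.411 (replicate 1 over replicate 2, 95% counting interval 0.373 to 0.454; log2 -1.28, adjusted p = 1.54e-76, exact binomial test). The bounds of 33.0 to 39.2 TPM in replicate 1 and 95.3 to 106.0 TPM in replicate 2 lay apart.

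Most of the reads given to Prtn3 in replicate 2 were given to a transcript that is not annotated as protein-coding. Prtn3-204, annotated as a retained-intron transcript of 786 bases, had 20.1 TPM or 54.1% of the gene in replicate 1 and 92.1 TPM or 87.3% in replicate 2 (bounds 15.4 to 22.6 and 81.3 to 92.7 TPM). Prtn3-201, the protein-coding transcript of 5 exons, had 16.7 TPM or 44.9% in replicate 1 and 11.6 TPM or 11.02% in replicate 2, with bounds that overlapped (13.4 to 18.8 and 8.62 to 13.7 TPM). The stretches that tell the transcripts apart are shown here from GENCODE M21 on the plus strand of chromosome 10 (GRCm38), and in each the lower-case bases are the same first 30 bases of exon 3 (chr10:79881036-79881065). In Prtn3-204 the capitals are the 56 bases of the end of the preceding intron (chr10:79880980-79881035) that no exon of Prtn3-201 holds, and in Prtn3-201 they are the last 30 bases of exon 2 (chr10:79880564-79880593).
Prtn3-204: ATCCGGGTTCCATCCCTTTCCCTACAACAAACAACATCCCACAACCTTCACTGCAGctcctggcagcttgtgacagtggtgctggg
Prtn3-201: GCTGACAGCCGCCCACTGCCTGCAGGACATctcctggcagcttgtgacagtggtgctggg
The other 730 of 786 bases of Prtn3-204, 92.9%, are shared with exons 3 to 5 of Prtn3-201, so the division of reads between these transcripts rests on few bases of their own and on the parts of Prtn3-201 that lie further 5′.

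**Figure D2:**
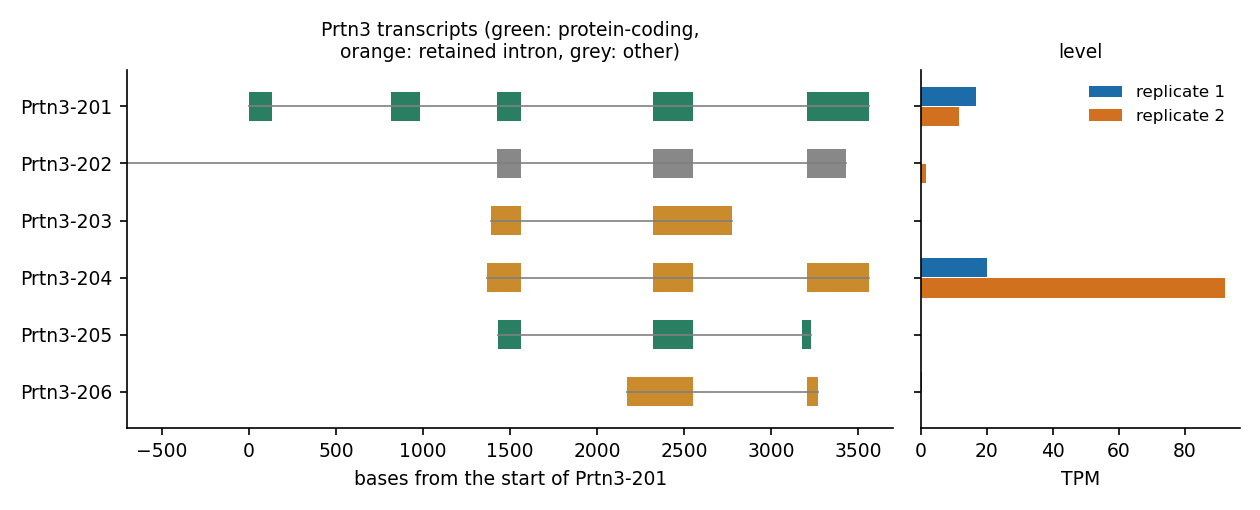
Exons of the 6 Prtn3 transcripts (left, boxes, in bases from the start of Prtn3-201) and the TPM of each in replicate 1 (upper bar) and replicate 2 (lower bar, right), the first exon of Prtn3-202 lying left of the axis. Prtn3-204 starts at the end of the intron before exon 3 and has 20.1 TPM in replicate 1 and 92.1 in replicate 2, while Prtn3-201 has 16.7 and 11.6.

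All 3 retained-intron transcripts of Prtn3 together held 55.1% of its TPM in replicate 1 and 87.5% in replicate 2. Over the 4198 nuclear protein-coding genes with such a transcript and 50 or more counts in each library the median share was 15.1% in replicate 1 and 16.5% in replicate 2, and 556 and 79 genes had a higher share than Prtn3. By counts the leading transcript, Prtn3-204, took 46.6% of the gene in replicate 1 and 83.8% in replicate 2, a difference of -37.2 percentage points (adjusted p = 2.98e-59, Fisher's exact test). With the protein-coding transcripts alone, a setting chosen after seeing the data, Prtn3 turned round and was higher in replicate 1 (log2 0.59, adjusted p = 1.23e-05, exact binomial test). Its protein-coding transcripts then stood at 16.7 TPM in replicate 1 and 11.6 in replicate 2 (14.1 ± 3.57, SD, n = 2). Prtn3 also overlaps Plppr3 on the opposite strand (683 and 712 counts), and whether strand was used in counting is not given here, so reads of Plppr3 and of Prtn3-202, the transcript that reaches into it, could be mixed. Prtn3-202 had 0 TPM in replicate 1 and 1.52 in replicate 2.

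Elane (ENSMUSG00000020125; GRCm38 chr10:79886247-79888215, plus strand) encodes neutrophil elastase, the protease mutated in human cyclic and severe congenital neutropenia. It starts 3072 bases after the end of Prtn3 and has 1 transcript in these tables. Elane had 334 counts and 20.99 TPM in replicate 1, against 142 counts and 9.14 TPM in replicate 2 (15.1 ± 8.38, SD, n = 2), with bounds of 17.95 to 22.2 and 7.34 to 10.2 TPM that lay apart. The ratio was 2.396 (95% counting interval 1.96 to 2.94; log2 1.26, adjusted p = 5.07e-19, exact binomial test). The adjacent genes Elane and Prtn3 thus differed between the libraries in opposite directions by whole-gene counts, and in the same direction by the protein-coding transcripts alone. Cfd, the next gene on the same strand, 2637 bases further on, encodes the serine protease adipsin and had 0 counts in both libraries.

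Ctsg (ENSMUSG00000040314; GRCm38 chr14:56099881-56102574, minus strand) encodes cathepsin G, a chymotrypsin-like protease of the granzyme and mast cell chymase cluster. It had 64.9 TPM from 1143 counts in replicate 1, against 49.5 TPM from 853 counts in replicate 2 (57.2 ± 10.9 TPM, SD, n = 2), a ratio of 1.37 (1.25 to 1.49; log2 0.45, adjusted p = 1.65e-11, exact binomial test). This was the smallest gap among the 4 proteases. Mcpt8, a basophil protease gene whose end lies 14607 bases from Ctsg, was higher in replicate 1 as well (12.7 TPM, against 5.14 in replicate 2; log2 1.36, adjusted p = 2.00e-12, exact binomial test). Of the other genes of this cluster on the lists, Cma1, a mast cell chymase gene, had 0 counts in both libraries, and Gzmb, which encodes granzyme B, had 0.650 TPM in replicate 1 and 0 in replicate 2.

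Prss57 (ENSMUSG00000020323; GRCm38 chr10:79781474-79790961, minus strand) encodes neutrophil serine protease 4, known from human neutrophils as the scarcest protease of this family. It had the lowest mean of the 4, below Elane in replicate 1 and above Elane in replicate 2, with 2.96 TPM from 51 counts in replicate 1, against 11 TPM from 192 counts in replicate 2 (6.98 ± 5.69, SD, n = 2). It had the widest relative gap of the 9 genes tested, at a ratio of 0.271 (0.195 to 0.370; log2 -1.88, adjusted p = 2.92e-19, exact binomial test). Its leading transcript, the 2-exon Prss57-204, held 77.8% of its TPM in replicate 1 and 53.6% in replicate 2, and all of its 495 bases are also in Prss57-201. The shares of counts did not pass Fisher's exact test (adjusted p = 0.0832). Prss57 overlaps the end of Fstl3 on the opposite strand, which had 26 counts in replicate 1 and 0 in replicate 2.

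The short stretch upstream of Elane and of Prtn3 is shown because these neighbours share a match to GAGGAA, the core of a site that the factor PU.1 can bind. The match lies at a like distance from the RefSeq start in both. Its distances from the GENCODE starts, where the printed stretches end, are less alike. The sequences are from RefSeq on GRCm38, plus strand, both end at the base before the GENCODE start of the leading protein-coding transcript, and the capitals mark the match. The Elane stretch is chr10:79886202-79886246, with the match 85 bases before the RefSeq start, and the Prtn3 stretch is chr10:79879557-79879613, with the match 95 bases before it.
Elane: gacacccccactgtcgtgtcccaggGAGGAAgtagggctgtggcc
Prtn3: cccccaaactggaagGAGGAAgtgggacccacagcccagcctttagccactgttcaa
Promoter windows of 250 bases before to 50 after the RefSeq start were found for 9 of the 10 genes (10 windows, 2 for Srgn), Prss57 being the unmatched one. On both strands, GAGGAA was in the windows of 5 genes (Mpo, Elane, Prtn3, Ctsg and Ms4a3) and in 5 of the 10 windows, beside 28.3% of all 32851 promoters in the table. AACNG (MYB) was in 90.0% of the windows, beside 80.3% of all promoters, TGNGGT (RUNX) in 40.0%, beside 45.8%, and TTGCNNAA (C/EBP) in 20.0%, beside 10.8%. None of the 6 GAGGAA matches overlapped a match of another motif, and in the Fcnb window 1 TTGCNNAA match overlapped 1 AACNG match. These are descriptions of letters in a window, not of binding.

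Srgn (ENSMUSG00000020077; GRCm38 chr10:62493833-62527451, minus strand) encodes serglycin, the proteoglycan core protein whose charged sugar chains hold proteases such as elastase in the granule. It was second to Mpo, with 242.1 TPM from 4190 counts in replicate 1 and 307.6 TPM from 5118 counts in replicate 2 (274.8 ± 46.3, SD, n = 2). Srgn was lower in replicate 1, at a ratio of 0.834 (0.8002 to 0.869; log2 -0.26, adjusted p = 1.24e-17, exact binomial test), a gap smaller than that of the median gene. Srgn-201 held 93.7% of its TPM in replicate 1 and 90.1% in replicate 2, and the longer Srgn-204 6.30% and 6.81%. As a share of counts Srgn-201 held 88.2% in replicate 1 and 86.2% in replicate 2 (difference 2.00 percentage points, adjusted p = 0.00594, Fisher's exact test). Serglycin is also stored in platelet and mast cell granules. Of 8 platelet granule genes 6 were detected in both libraries, beside 44.9% of nuclear protein-coding genes. The list summed to 131.5 TPM in replicate 1 and 242.4 in replicate 2. Of the 7 platelet genes tested 6 were higher in replicate 2, beside 40.7% of all 13616 genes tested, none was higher in replicate 1, beside 37.5%, and Ppbp had 0 counts in both libraries. The mast cell and basophil list, with 5 of 8 genes detected, summed to 117.9 TPM in replicate 1 and 120.9 in replicate 2, with Tpsb2 at 0 counts in both. Gata2 gave 54.8 and 88.4 TPM of these sums and was higher in replicate 2, whereas Cpa3, Mcpt8 and Ms4a2, 3 of the 5 genes tested, were higher in replicate 1. The part of either list's cells in the Srgn level was not tested.

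Ms4a3 (ENSMUSG00000024681; GRCm38 chr19:11629496-11640851, minus strand) encodes a membrane protein of the MS4A family that marks the path from granulocyte-monocyte progenitors in the mouse. It had 10.2 TPM from 174 counts in replicate 1 and 8.24 TPM from 154 counts in replicate 2 (9.23 ± 1.40, SD, n = 2). Ms4a3 was the only gene of the 9 tested whose counts did not differ beyond counting noise (ratio 1.15, interval 0.921 to 1.44; log2 0.20, adjusted p = 0.236, exact binomial test). Its protein-coding transcript Ms4a3-202 held 97.2% of the TPM in replicate 1 and 80.1% in replicate 2, and the retained-intron transcript Ms4a3-203 held 1.37% and 19.9%. The difference in the share of counts passed the test (25.2 percentage points, adjusted p = 3.61e-10, Fisher's exact test). By the protein-coding transcripts alone, the setting chosen after seeing the data, the gene was higher in replicate 1 (log2 0.68, adjusted p = 1.94e-04, exact binomial test). Ms4a2, the adjacent gene and a chain of the IgE receptor of mast cells and basophils, had 2.81 TPM in replicate 1 and 1.60 in replicate 2.

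**Figure D3:**
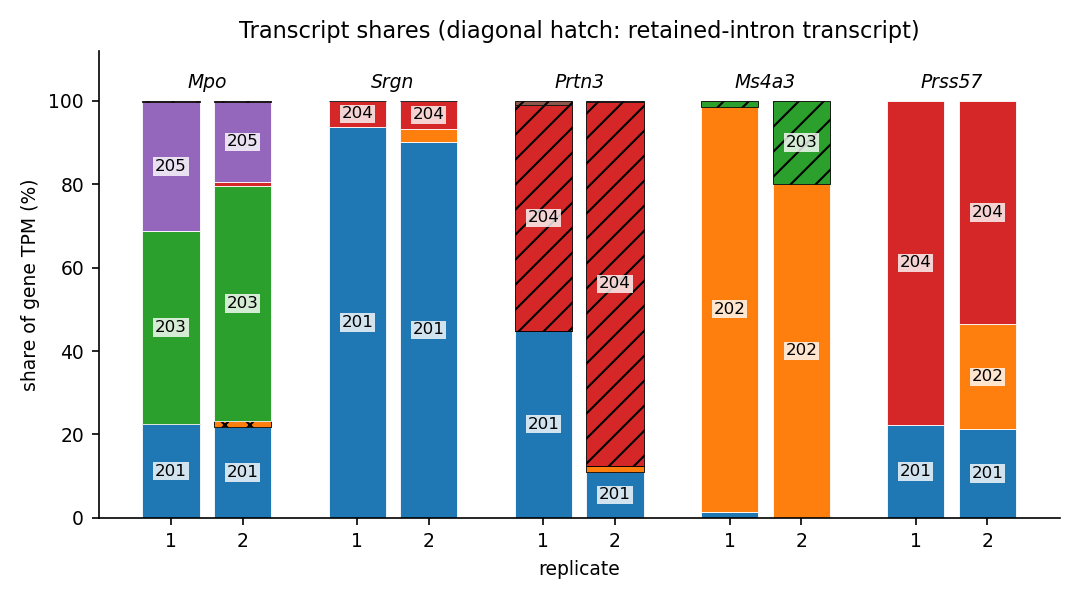
Share of each gene's TPM (y axis, %) held by its transcripts in replicates 1 and 2 for the 5 genes with several transcripts and counts in both libraries; segments are numbered by transcript, and diagonal hatching marks retained-intron transcripts. The hatched share is 55.1% in replicate 1 and 87.5% in replicate 2 for Prtn3 and 1.37% and 19.9% for Ms4a3, and it is under 1% for Mpo in both libraries.

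Nkg7 (ENSMUSG00000004612; GRCm38 chr7:43437073-43438249, plus strand) encodes a small membrane protein of cytotoxic granules, named for natural killer cells, where it takes part in granule release. It had 74.5 TPM from 1122 counts in replicate 1, against 57.6 TPM from 846 counts in replicate 2 (66.1 ± 12.0, SD, n = 2), a ratio of 1.35 (1.23 to 1.48; log2 0.43, adjusted p = 1.13e-10, exact binomial test). All 8 genes on the list of natural killer and T cell markers, among them Cd3e, Ncr1, Prf1 and Gzma, had 0 counts in both libraries.

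Lyz2 (ENSMUSG00000069516; GRCm38 chr10:117277331-117282321, minus strand) encodes lysozyme M, the bacterial wall hydrolase of myeloid cells. It had 14.8 TPM from 341 counts in replicate 1, against 24.7 TPM from 559 counts in replicate 2 (19.8 ± 6.99, SD, n = 2), a ratio of 0.621 (0.541 to 0.712; log2 -0.69, adjusted p = 8.79e-12, exact binomial test). Its near-identical neighbour Lyz1, the lysozyme of Paneth cells 5475 bases away, had no counts in either library, so all reads that these genes could share were given to Lyz2, and the division is uncertain. Of 8 macrophage markers, Cd68 alone was detected in both libraries, beside 44.9% of nuclear protein-coding genes. Cd68 had 10.2 TPM in replicate 1 and 4.25 in replicate 2. The list summed to 10.2 TPM in replicate 1 and 4.52 in replicate 2, with C1qa, C1qb, Cd14 and Marco at 0 counts in both. Mrc1, the mannose receptor gene of macrophages, had 0 TPM in replicate 1 and 0.240 TPM from 26 counts in replicate 2. Cd68 was higher in replicate 1 and Mrc1, like Lyz2, in replicate 2 (adjusted p = 2.85e-15 for Cd68 and 7.33e-08 for Mrc1, exact binomial test), and their part in the Lyz2 difference was not tested.

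Fcnb (ENSMUSG00000026835; GRCm38 chr2:28076378-28084885, minus strand) had 2 counts in replicate 1 and 0 in replicate 2. At 0.1 TPM in replicate 1 and 0 in replicate 2 it lay under the floors of 0.143 and 0.228 TPM that 3 counts give, and it was not detectable at this depth. It lay under the minimums of both the binomial test and the limma fit, and no fold is given for it.

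The levels followed a wide order in both libraries. From high to low mean TPM it ran Mpo, Srgn, Prtn3, Nkg7, Ctsg, Lyz2, Elane, Ms4a3, Prss57 and Fcnb. The values of Mpo lay above those of Srgn in both libraries (means 1.40-fold apart), Srgn lay above Prtn3 (3.86-fold), Ctsg above Lyz2 (2.90-fold) and Prss57 above Fcnb. The order of Prtn3 and Nkg7, of Lyz2 and Elane and of Ms4a3 and Prss57 differed between the libraries. Nkg7 lay above Ctsg and Elane above Ms4a3 in each library, but their ranges over the libraries overlapped. The place of Prtn3 rests on its retained-intron transcript, and by protein-coding transcripts alone its mean of 14.1 TPM was below the means of Lyz2 and Elane.

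Against Mpo, the level of each of the 8 other genes that passed the filter (1 TPM or more in a library) was lower, beside 98.7% of the 10756 genes fitted that were lower too. The measure was log2 of (TPM + 1) over that of Mpo, tested in limma against 0, and the difference ran from -0.50 ± 0.17 (SE) for Srgn to -5.81 ± 0.41 for Prss57. Nkg7 lay at -2.54 ± 0.20, Prtn3 at -2.60 ± 0.29 (adjusted p = 1.14e-06), Ctsg at -2.75 ± 0.20, Lyz2 at -4.26 ± 0.26, Elane at -4.70 ± 0.30 and Ms4a3 at -5.25 ± 0.29. The Srgn difference (adjusted p = 0.0108) was seen in both libraries but did not pass without the filter on low values (adjusted p = 0.0650) or without the variance trend (adjusted p = 0.122). With 2 libraries an exact sign-flip test cannot go below p = 0.5, so the limma result rests on spread pooled over genes.

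Between the libraries, 8 of the 9 genes tested differed beyond counting noise, 3 higher in replicate 1 (Elane, Ctsg and Nkg7) and 5 higher in replicate 2 (Mpo, Srgn, Prtn3, Prss57 and Lyz2), the Prtn3 call being that of the whole gene and reversed for its protein-coding transcripts alone. Over all 13616 genes tested 78.2% differed, 37.5% being higher in replicate 1 and 40.7% in replicate 2, so a share of this size is close to the background and is no result about these genes. Mpo was among them with a ratio of 0.943 (0.921 to 0.964; log2 -0.09, adjusted p = 8.14e-07, exact binomial test). The median absolute log2 ratio of all genes was 0.514 (median log2 ratio -0.0284), and only Elane, Prss57, Prtn3 and Lyz2 exceeded it. The deposited bounds lay apart for 7 of the 10 genes, all but Mpo, Ms4a3 and Fcnb, beside 62.8% of the 11656 nuclear protein-coding genes tested. At the common dispersion that edgeR estimated from both libraries as 1 group (0.611, a biological coefficient of variation of 0.781), 0 genes passed its exact test after adjustment. That dispersion takes the differences between these same libraries as error, so the lack of calls does not show that they agree. Of the 13616 genes tested, 1468 had an unadjusted p under 0.05. None of them was a primary granule gene, and the 9 tested are too few to be read against that share. The lowest unadjusted p of that exact test among the 9 was 0.293, for Prss57.

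**Figure D4:**
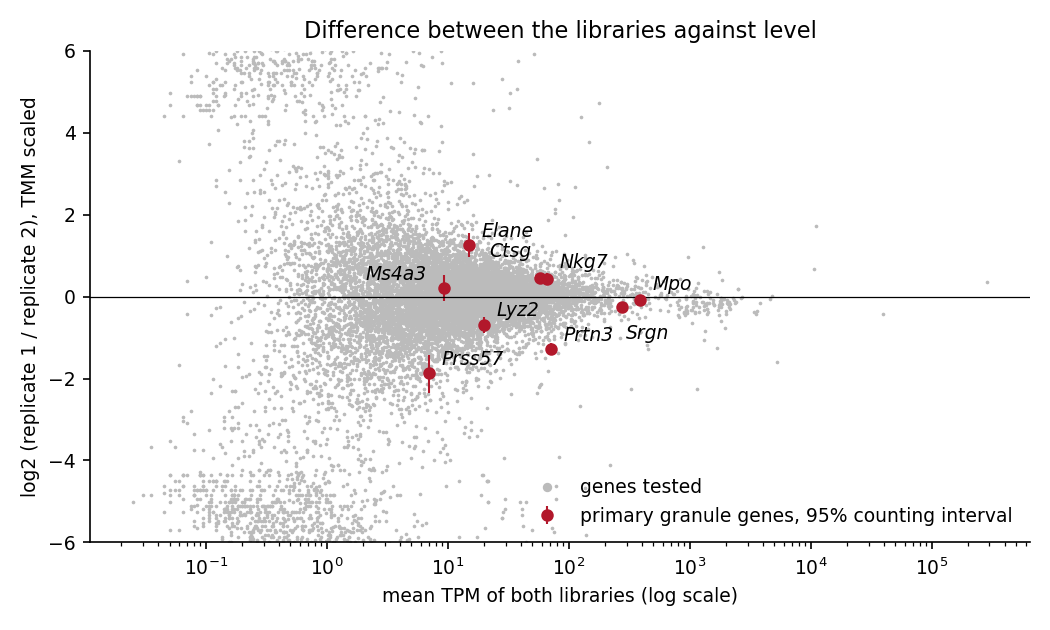
Log2 ratio of replicate 1 over replicate 2 after TMM scaling (y axis) against mean TPM (x axis, log scale) for the genes tested (grey, those beyond 6 in either direction not drawn) and the 9 primary granule genes tested (red, with 95% counting intervals). Mpo and Srgn lie near 0, Elane at 1.26, and Prtn3 and Prss57 at -1.28 and -1.88.

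Transcript use differed in 4 of the 5 genes that could be tested, namely Mpo, Srgn, Prtn3 and Ms4a3 but not Prss57, beside 77.4% of the 7355 genes tested. Elane, Ctsg, Nkg7 and Lyz2 have 1 transcript each in these tables. The relative spread of TPM between the libraries was smallest for Mpo (coefficient of variation 0.0366%), although its scaled counts differed. This spread lay between 15.2% and 19.0% for Ms4a3, Srgn, Nkg7 and Ctsg, and reached 35.4% for Lyz2, 55.6% for Elane, 67.7% for Prtn3 and 81.4% for Prss57.

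The genes that process and restrain granule proteins were present with their clients. All 9 on that list were detected in both libraries, beside 44.9% of nuclear protein-coding genes. Their medians were 22.7 TPM in replicate 1 and 24.9 in replicate 2. By counts 3 were higher in replicate 1 and 5 in replicate 2, or 8 of 9 beside 78.2% of all genes tested. Calr, the calreticulin chaperone that binds the myeloperoxidase precursor, had 224.0 TPM in replicate 1, against 158.0 in replicate 2, and Canx, which encodes calnexin, had 117.2 and 93.3. Ctsc, the cathepsin C gene whose product removes the dipeptide that keeps these serine proteases inactive, had 10.5 TPM in replicate 1 and 7.91 in replicate 2. Its counts ran the other way, 271 in replicate 1 and 329 in replicate 2 (log2 -0.25, adjusted p = 0.0434, exact binomial test), and by them it is among the 5. Cst7, an inhibitor of cathepsin C, had 25.4 and 38.4 TPM and stood above Ctsc in both libraries. Serpinb1a, a cytosolic inhibitor of elastase, proteinase 3 and cathepsin G, had 18.7 TPM in replicate 1 and 24.9 in replicate 2, and Slpi, a secreted inhibitor of elastase and cathepsin G, had 22.7 and 4.46.

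Lysosomal enzymes and granule transport genes were also read throughout. All 9 lysosomal genes whose products are also found in primary granules were detected in both libraries, beside 44.9% of nuclear protein-coding genes. Of these 9, 6 were higher in replicate 1 and 2 in replicate 2, beside 37.5% and 40.7% of all genes tested. That is again 8 of 9, beside 78.2%. Cd63, the tetraspanin that marks primary granule membranes, had 39.3 TPM in replicate 1, against 13.9 in replicate 2 (log2 1.54, adjusted p = 8.65e-45, exact binomial test), and Gusb, which encodes beta-glucuronidase, had 41.7 and 23.3. All 8 genes of granule sorting and release were detected in both libraries, beside the same 44.9%. Of these 8, 4 were higher in replicate 1 and 2 in replicate 2, beside 37.5% and 40.7% (6 of 8, beside 78.2%). The highest was Stxbp2, a syntaxin-binding protein of granule fusion, with 145.3 TPM in replicate 1 and 68.8 in replicate 2. Its counts of 2040 and 1596 lay closer together (log2 0.38 after TMM scaling). Unc13d, a priming factor for granule fusion, had 19.9 and 27.5 TPM.

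Of 8 transcription factors known for granule genes, 6 were detected in both libraries, beside 44.9% of nuclear protein-coding genes. Of the 7 tested, 6 were higher in replicate 2 and none in replicate 1, beside 40.7% and 37.5% of all genes tested. Myb had 208.5 TPM in replicate 1 and 218.9 in replicate 2, Runx1 65.3 and 112.1, Spi1, which encodes PU.1, 8.79 and 13.2, and Cebpa 5.69 and 9.69. By counts (4508 and 5982) the gap of Runx1 was smaller than by TPM (log2 -0.38 after TMM scaling). Gfi1, a repressor needed for neutrophil formation, had 0.110 TPM from 5 counts in replicate 1 and 3.75 TPM from 97 counts in replicate 2. Cebpe, the factor of secondary granule genes, had 0.130 TPM in replicate 1 and 0 in replicate 2.

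Genes of later granules were at or near 0. Of 12 secondary and tertiary granule genes only Hp, which encodes haptoglobin, was detected in both libraries, beside 44.9% of nuclear protein-coding genes. Hp had 3.21 TPM in replicate 1 and 4.25 in replicate 2. The 12 genes summed to 5.01 and 5.52 TPM, beside 853.7 and 959.3 for the 10 primary granule genes. The sum of these 10 genes was also above those of the platelet list and of the mast cell and basophil list, of 8 genes each, in both libraries. Most of it was Mpo (45.2% in replicate 1 and 40.3% in replicate 2) and Srgn (28.4% and 32.1%). Srgn, unlike Mpo, is named above as stored in the granules of platelets and mast cells too. The medians were 29.1 and 37.1 TPM for the primary granule genes, 6.68 and 10.9 for the platelet list, and 7.75 and 2.97 for the mast cell and basophil list. The close relatives Epx and Lpo, the peroxidase genes of eosinophils and of secretions, had 0 counts in both libraries, and Lpo lies 2014 bases from Mpo. Fcna, the ficolin A gene of macrophages, had 0 counts as well.

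**Figure D5:**
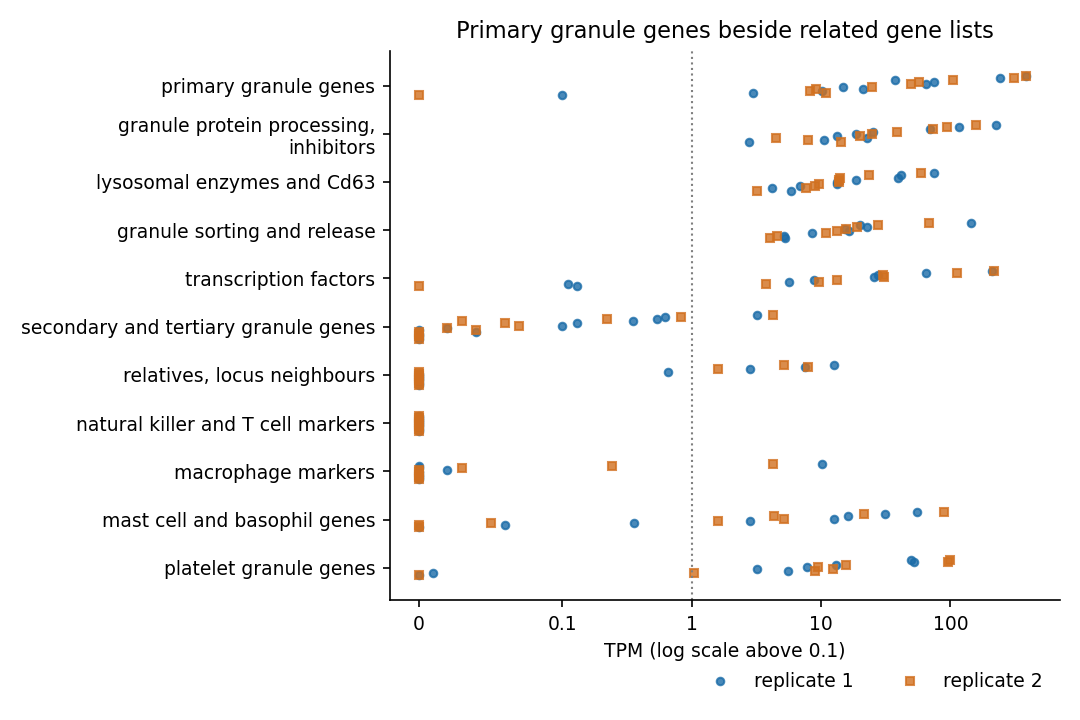
TPM in replicate 1 (circles) and replicate 2 (squares) of each gene of 11 sets, the primary granule genes first (x axis, log scale above 0.1; dotted line at 1 TPM). The processing, lysosomal and sorting genes all lie above 1 TPM in both libraries, while 11 of the 12 secondary and tertiary granule genes and all natural killer and T cell markers lie below it.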

How the data were processed

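The authors deposited, per library, a gene table and a transcript table on mouse build mm10 (GRCm38) with GENCODE M4. Per the file headers, these hold expected counts, which are estimates that divide shared reads, TPM, which is length-corrected and summed over all entries including tRNA and spike-ins, posterior means with bounds, and, for each transcript, its percent of the gene's TPM. The sources used here name neither aligner nor quantifier. Symbols came from GENCODE M21 of that build, by unversioned identifier (42462 of 43346 genes).

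The 10 genes and the gene lists were chosen with earlier results of these data known. All 10 genes are named, as may be any gene on the lists, and the 3 genes outside them nearest to Mpo in level. Counts were rounded and compared by exact binomial tests with TMM factors from edgeR 4.0.16 (R 4.3.3), where a library had 10 or more counts, spike-in, tRNA and ribosomal RNA entries left out. Levels against Mpo used limma 3.58.1 on log2(TPM + 1) with a variance trend. Fisher's exact test set the leading transcript against the rest where each library had 50 or more counts. Each p-value was Benjamini-Hochberg adjusted over all genes tested. Each test was also run on simulated counts or levels. There the binomial test called 0.0914% of 13131 unchanged genes, beside 78.2% of 13616 genes between the real libraries. The simulation therefore does not show how often that test calls unchanged genes in these libraries. Alternatives included DESeq2 1.42.0 size factors, other filters, pseudocounts and TPM thresholds, posterior means, the edgeR exact test and, added after seeing the data, protein-coding transcripts alone.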

Additional observations from a re-analysis of the deposited data

How the results depend on the processing

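The median level of the 10 genes was 38.5 TPM over both libraries, and ran from 29.1 (without replicate 2) to 37.1 (without replicate 1) in a library alone. Rescaled over nuclear protein-coding genes it was 100.1 TPM, since tRNA, ribosomal and other RNA then leave the denominator, and over protein-coding transcripts alone, a setting added after seeing the data, it was 17.4. The 8 differences between the libraries remained 8 under DESeq2 size factors, total-count scaling and no count minimum, were 9 with protein-coding transcripts alone, and were 0 under edgeR's exact test with the common dispersion. That dispersion takes the differences between these same libraries as error, so the edgeR test does not decide whether they differ. Under protein-coding transcripts alone Prtn3 was reversed, at a log2 ratio of 0.59. Of the alternatives for single genes between the libraries, 35 kept direction and call, 8 (all from the edgeR exact test) lost the call, 1 (Ms4a3) gained it and 1 reversed. Against Mpo, 54 kept both and 2, both for Srgn, lost the call. Detection in both libraries held for 9 genes, or 8 at a threshold of 5 TPM, and 4 transcript differences passed at each count minimum. Of the 92 list genes, 49 were detected in both libraries, beside 44.9% of nuclear protein-coding genes. The count was 53 at a threshold of 0.1 TPM and 37 at 5 TPM. No paired analysis was possible because the 2 libraries form 1 group. Leaving out a library leaves no test between libraries. Depth limits Fcnb and, at 51 counts in replicate 1, Prss57.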
